A study of Mus musculus with 3 samples.

Results

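The renin-angiotensin system was followed in the RNA of mouse aortas that carry 1 intact Plk1 allele. It was taken here as 9 genes: the precursor Agt, the enzymes Ren1 and Ace, the receptors Agtr1a, Agtr1b, Agtr2 and Mas1, the receptor-associated protein gene Agtrap and the aminopeptidase gene Lnpep. Probes were chosen by name, as every non-control probe whose gene name in the files, or current symbol, was 1 of these 9. That gave 19 of the 41174 probes of the array design, with at least 1 probe for each of the 9 genes among 27670 symbols.

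RNA of 3 single aortas labelled Plk1(+/-) was set, on 3 two-colour arrays of 1 slide, against RNA of 1 pool of 3 wild-type aortas. All mice, in both genotypes, were of strain 129/CD1 and 3 to 5 months old, and the labels name no treatment and no further allele. Plk1 encodes polo-like kinase 1, which drives mitosis, and the comparison asked which aortic transcripts differ when 1 allele is lost. Each Plk1(+/-) aorta carried the red dye Cy5 and the pool carried the green dye Cy3 on every array, so dye and genotype cannot be told apart. The pool is 1 control sample: the test of the ratio against 0 leaves out the spread between wild-type mice. The labels call the aortas biological replicates and give the tissue as aorta, although their growth protocol describes embryonic stem cells.

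Angiotensinogen, the product of Agt, is a plasma protein made mainly in liver and also in fat. Renin cuts it to angiotensin I, and angiotensin-converting enzyme, the product of Ace, trims that to angiotensin II, which contracts vascular smooth muscle and raises blood pressure through the AT1 receptor. Rodents have a pair of AT1 receptor genes, Agtr1a and Agtr1b. The AT2 receptor (Agtr2) and Mas1 are generally placed on an opposing, vasodilator side. Agtrap protein binds the AT1 receptor and promotes its internalisation, and Lnpep is an aminopeptidase that binds angiotensin IV.

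Each probe is a stretch of 60 bases of the transcript. The first 30 bases are printed, as the files give them and with no base marked, for the genes whose values are described sample by sample below, so that the transcript piece behind each signal can be seen.
Agt A_51_P323712: cgtctccttggagactgcgctgaccgagaa
Ren1 A_51_P316661: ttctatacagagtttgatcggcataacaat
Ren1 A_52_P544060: caggctcagtgctgaatggggcgtattcac
Ace A_52_P68028: atgggggacatggtgtttgagtggaacata
Ace A_52_P72297: ttccacgttcctgcgaacgtgccatacgtc
Agtr1a A_52_P645862: tcctccacatatatgtacatatgtatctct
Agtr1a A_51_P236439: ttaaaaagtatttcctccagctcctgaaat
In the files' mm7 coordinates the Agt probe lay at chr8:123143932-123143991 on the minus strand. The Ren1 probes lay on the plus strand at chr1:133261002-133261061 (A_51_P316661) and chr1:133255110-133255169 (A_52_P544060). The Ace probe A_52_P68028 lay at chr11:106098125-106098184 on the plus strand. A_52_P72297 was placed over 1987 bases, at chr11:106095098-106097084, so its 60 bases come from separate genomic pieces. Both Ace probes list the same 2 RefSeq transcripts, and the somatic and testis forms of the enzyme were not told apart. The Agtr1a probes lay on the plus strand at chr13:29748316-29748375 (A_52_P645862) and chr13:29747426-29747485 (A_51_P236439). No member probe shared an exact stretch of 20 bases, on either strand, with a probe of another symbol. Whether a probe lies in coding or untranslated sequence was not analysed here.

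Probe spots well above background made up 77.0% to 80.8% in Cy5 and 66.0% to 69.0% in Cy3. Median signals were 335 to 357 in Cy5 and 156 to 165 in Cy3, a dye difference that loess normalization removes, so a raw Cy5 signal above the Cy3 signal is not by itself a higher level. Repeat spots of 1 probe on 1 array had a median SD of 0.06 to 0.07 in log2 ratio. The Plk1 probe averaged 0.10 ± 0.28 in log2 ratio of Plk1(+/-) over pool (SD, n = 3), at -0.06, -0.08 and 0.42 in aortas 1, 2 and 3 (adjusted p = 0.705). Markers of brown fat, which surrounds the thoracic aorta, were present beside those of the vessel wall: Ucp1, Cox8b and Cox7a1 were saturated in both dyes on all 3 arrays, so their amounts could not be compared.

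Of the 19 member probes, 15 probes of 7 genes were well above background in at least 1 dye on at least 2 of 3 arrays and were tested. Agtr2, both Mas1 probes and the Ace probe A_51_P310523 were well above background in neither dye on any array, so nothing is said of their change. In limma's moderated test with Benjamini-Hochberg adjustment over all 32497 tested probes, 0 of the 15 passed an adjusted p of 0.05, where 0.662% of all tested probes did. Their smallest adjusted p was 0.174. In simulated data, the fit called 0 of 50 probes changed by 0.5 in log2 ratio and 27 of 50 changed by 1. Having 0 calls therefore does not show that the members were unchanged. Without adjustment, 4 of the 15 had a p under 0.05, 3 of them lower and 1 higher, against 18.8% of all tested probes. On all 3 arrays, 4 of the 15 were lower than the pool, where 19.6% of tested probes were, and 2 of the 15 were higher, where 25.3% were. The median of the 15 mean log2 ratios was -0.06, and that of all tested probes was 0.03. Counts of members thus stood near the background of the whole array. The 215 calls of the whole array split into 10 higher and 205 lower (4.65% higher), while with median centring instead of loess there were 10342 calls, 36.9% of them higher. With saturated probes left out of the fit, 0 of 31901 probes were called. The 215 calls and the 0.662% thus hold only for a fit that includes saturated probes, whose ratios are clipped.

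**Figure D1:**
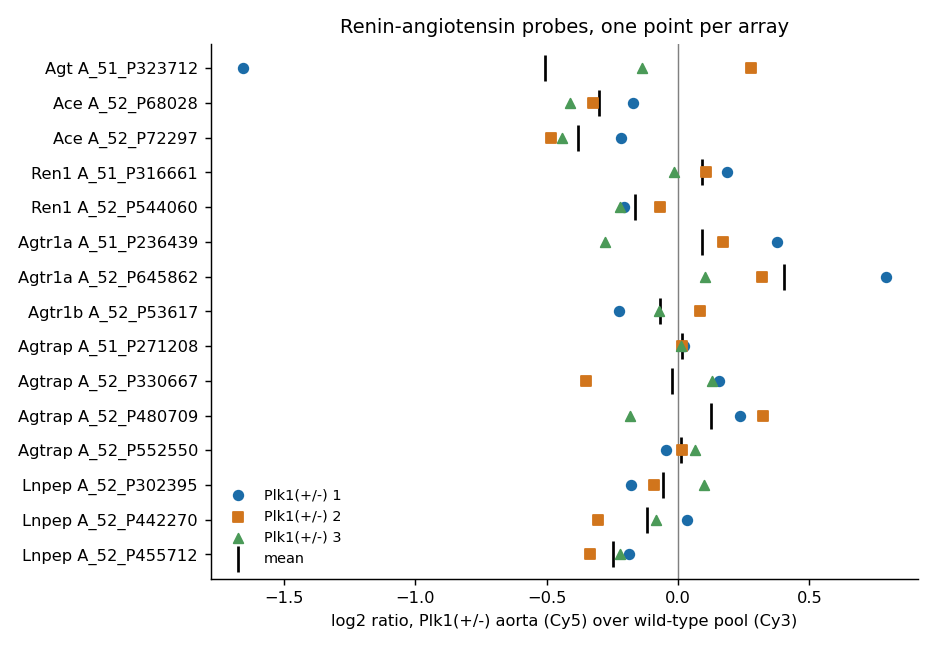
Log2 ratio of each Plk1(+/-) aorta over the wild-type pool (x axis) for the 15 tested renin-angiotensin probes (y axis), 1 point per array, with a black bar at the mean. Agt in aorta 1 stands at -1.66, away from the other points, while the 4 Agtrap and 3 Lnpep probes stay between -0.35 and 0.32. For the Ren1 probe A_52_P544060 the pool was not well above background.

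Agt varied between the 3 Plk1(+/-) aortas rather than moving in 1 direction. Its probe read 427, 1956 and 1434 in the Plk1(+/-) aortas 1, 2 and 3, against 582, 672 and 609 in the pool on the same arrays. The log2 ratios were -1.66, 0.28 and -0.14. Aorta 1 was well below the pool, aorta 2 above it and aorta 3 close to it. The mean of -0.51 ± 1.02 (SD, n = 3) had a 95% interval of -1.57 to 0.56 and an adjusted p of 0.525, and without aorta 1 the mean turned to 0.07. The pool itself, hybridised 3 times, was steady: its normalized log2 signal had an SD of 0.09 over the arrays, against 1.11 for the Plk1(+/-) aortas. Of 31901 tested probes without a saturated spot, 1.29% had an SD of log2 ratio at least as large as that of Agt, and the median SD was 0.14.

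Because angiotensinogen is made in liver and fat, the markers of those tissues are given beside Agt. Of 8 hepatocyte markers, 6 were tested and unsaturated, with median log2 ratios of -1.41, 1.35 and -1.41 in aortas 1, 2 and 3. Alb, the albumin gene, stood at -2.45, 1.56 and -2.40. Hepatocyte markers were thus low in aorta 1, where Agt was low, and equally low in aorta 3, where Agt was near the pool. The 3 unsaturated brown fat markers had medians of -0.66, 0.39 and 0.60, with the deiodinase gene Dio2 at -1.12, 0.39 and 0.64, Ppargc1a, a coactivator of mitochondrial genes, at -0.66, -0.04 and 0.60, and the fatty acid elongase gene Elovl3 at -0.18, 1.01 and -0.48. The other 5 of the 8 brown fat markers were saturated, as were 5 of the 8 white fat markers, whose 3 unsaturated members had medians of 0.06, 0.16 and -0.65. These 3 differed: Retn had -1.17, 0.39 and -0.65, Lep 0.14, -0.13 and -1.35, and Lipe 0.06, 0.16 and 0.29. Aorta 1 was the lowest of the 3 in Agt, Dio2, Ppargc1a, Retn and Lipe, while aorta 3 was the lowest in Elovl3 and Lep. The part of any of these tissues in the Agt values was not tested. In whole aortas, fewer cells of a type and less RNA per cell cannot be told apart.

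**Figure D2:**
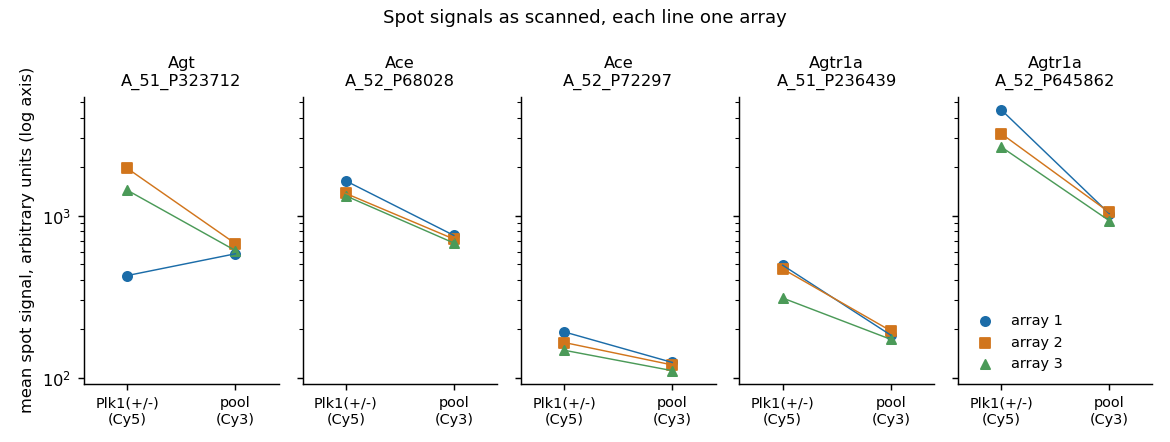
Mean spot signal as scanned, in arbitrary units on a log axis, for Agt, both tested Ace probes and both Agtr1a probes; each line joins the Plk1(+/-) aorta (Cy5, left) and the wild-type pool (Cy3, right) of 1 array. The Cy3 points of Agt lie between 582 and 672, while its Cy5 points spread from 427 to 1956.

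Ren1, which encodes the enzyme that starts the cascade, had 2 tested probes, of which A_51_P316661 cleared background well on each array in either dye. It read 319, 331 and 282 in the Plk1(+/-) aortas, against 147, 153 and 139 in the pool. Its log2 ratios of 0.19, 0.10 and -0.02 lay on both sides of 0, with a mean of 0.09 ± 0.10 (SD, n = 3) and an adjusted p of 0.533; median centring turned the mean to -0.04. This probe lists transcripts of both renin genes of the mouse, Ren1 and Ren2, and could not tell them apart. A_52_P544060, which lists Ren1 alone, read 138, 122 and 120 in the Plk1(+/-) aortas and 99.1, 83.9 and 93.2 in the pool. It was well above background on 2 of 3 arrays in Plk1(+/-) aortas and on 0 of 3 in the pool, so it has no fold, and its adjusted p was 0.308.

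Ace was a little lower in each Plk1(+/-) aorta on both tested probes, without passing the test. A_52_P68028 read 1639, 1371 and 1325 in Plk1(+/-) aortas and 755, 717 and 678 in the pool, which after normalization gave log2 ratios of -0.17, -0.33 and -0.41. The mean was -0.30 ± 0.12 (SD, n = 3), with a 95% interval of -0.51 to -0.09, an unadjusted p of 0.0154 and an adjusted p of 0.195. A_52_P72297 read 192, 165 and 148 in Plk1(+/-) aortas and 124, 120 and 111 in the pool, with log2 ratios of -0.22, -0.48 and -0.44. Its mean was -0.38 ± 0.14 (SD, n = 3), with an adjusted p of 0.174. Both probes were negative in every aorta, and aorta 1 was nearest to the pool on both. The mean stayed negative on both probes under each alternative run, between -0.37 and -0.12 for A_52_P68028 and between -0.74 and -0.32 for A_52_P72297; the second passed under 1 alternative, median centring (adjusted p = 0.0204). Ace is made chiefly by endothelium in vessels, and the 8 endothelial markers had median log2 ratios of 0.09, -0.06 and -0.18 in aortas 1, 2 and 3, with 0 of 8 at an unadjusted p under 0.05. Their part in the Ace values was not tested.

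Agtr1a, the main AT1 receptor gene of mouse vessels, had the highest mean ratio of the tested members on 1 of its probes. A_52_P645862 read 4500, 3208 and 2655 in Plk1(+/-) aortas 1, 2 and 3, against 1031, 1049 and 931 in the pool. Its log2 ratios were 0.79, 0.32 and 0.10, with a mean of 0.40 ± 0.35 (SD, n = 3), a 95% interval of 0.00 to 0.81, an unadjusted p of 0.0496 and an adjusted p of 0.265; without aorta 1 the mean was 0.21. The second probe, A_51_P236439, read 495, 469 and 311 in Plk1(+/-) aortas, against 183, 195 and 173 in the pool. It gave log2 ratios of 0.38, 0.17 and -0.28 and a mean of 0.09 ± 0.34 (SD, n = 3; adjusted p = 0.757), which turned to -0.05 without aorta 1. The probes differed in level of ratio but not in order: aorta 1 was highest and aorta 3 lowest on both.

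The spread of Agtr1a between Plk1(+/-) aortas exceeded that of the repeated pool. The SD of the normalized log2 signal was 0.41 and 0.37 in Plk1(+/-) aortas on A_52_P645862 and A_51_P236439, and in the pool it was 0.06 and 0.04 on the same probes. Of the tested unsaturated probes, 12.3% and 13.6% had an SD of log2 ratio at least as large. The 8 markers of peripheral neurons and glia had medians of 1.35, 0.51 and -0.23 in aortas 1, 2 and 3. In these markers too aorta 1 was highest and aorta 3 lowest. Smooth muscle, the main site of AT1 receptor in the vessel wall, had medians of -0.25, -1.68 and -1.05 over its 5 unsaturated markers. The part of either cell type in the Agtr1a values was not tested.

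**Figure D3:**
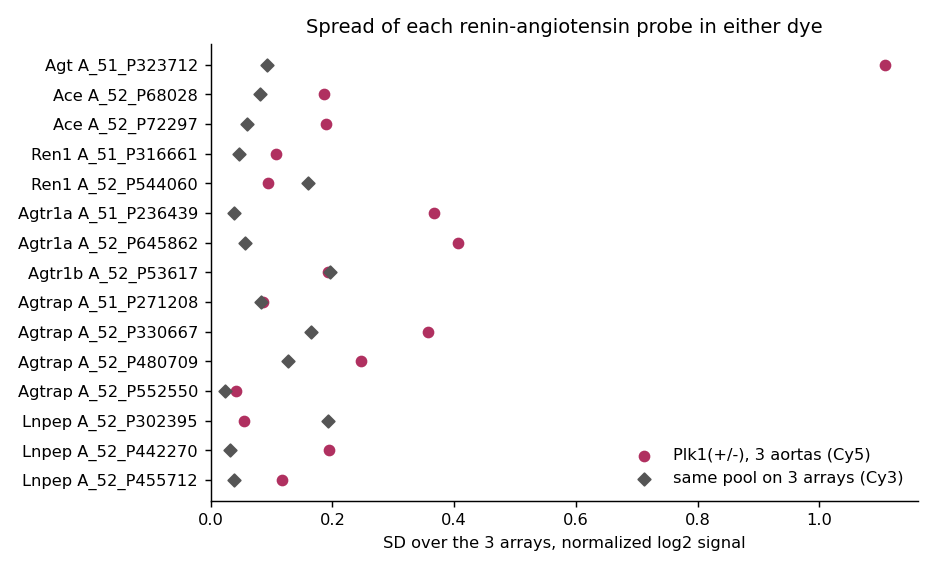
SD over the 3 arrays of the normalized log2 signal (x axis) of each tested probe (y axis), for the 3 Plk1(+/-) aortas in Cy5 (circles) and for the same wild-type pool on 3 arrays in Cy3 (diamonds). Agt has 1.11 in Plk1(+/-) aortas and 0.09 in the pool; both Agtr1a probes have 0.37 to 0.41 in Plk1(+/-) aortas and 0.04 to 0.06 in the pool.

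Over the 15 probes, the SD was larger in the Plk1(+/-) aortas than in the pool for 12 probes, or 80.0%, beside 72.5% of all tested probes. The pool's SD holds no difference between animals, since 1 RNA was hybridised 3 times, while that of the Plk1(+/-) aortas holds the difference between 3 mice.

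Agtr1b, the second AT1 receptor gene, read 129, 144 and 162 in Plk1(+/-) aortas and 92.8, 80.9 and 98.8 in the pool. It was well above background on 3 of 3 arrays in Plk1(+/-) aortas and on 1 of 3 in the pool. The log2 ratios of -0.23, 0.09 and -0.07 lay on both sides of 0, and the mean of -0.07 ± 0.16 (SD, n = 3; adjusted p = 0.683) turned to 0.08 with the processed signals, which the scanner software had background-subtracted and dye-normalized. Agtr2 read 90.8, 107 and 96.3 in Plk1(+/-) aortas and 94.5, 84.4 and 76.0 in the pool, against local backgrounds of 67.0 to 75.5 and 47.0 to 52.0. Mas1 read 82.4 to 99.5 over both probes in Plk1(+/-) aortas and 63.6 to 77.2 in the pool. Neither gene was well above background on any array, and a change was not detectable at this signal.

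Agtrap stayed close to the pool on average. The 4 Agtrap probes had mean log2 ratios of 0.02 ± 0.01, -0.02 ± 0.29, 0.13 ± 0.27 and 0.01 ± 0.06 (SD, n = 3 each) on A_51_P271208, A_52_P330667, A_52_P480709 and A_52_P552550. Their adjusted p values ran from 0.602 to 0.940, and A_52_P480709 was saturated in Cy5 on 1 of 3 arrays, at 64414 in Plk1(+/-) aorta 1. A_52_P480709 read 18093 to 20128 in the pool, where the other Agtrap probes read 137 to 267. Whether it reads Agtrap alone was not tested. On A_51_P271208, where replicates were tightest, the 95% interval of the mean was -0.15 to 0.19. Scaling changed the sign of A_51_P271208, to -0.13 with median centring, and of A_52_P552550, to -0.08 with the processed signals.

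The 3 Lnpep probes had means of -0.06 ± 0.14, -0.12 ± 0.17 and -0.25 ± 0.08 (SD, n = 3 each) on A_52_P302395, A_52_P442270 and A_52_P455712. The last read 3262, 3002 and 3283 in Plk1(+/-) aortas and 1482, 1528 and 1414 in the pool, or log2 ratios of -0.19, -0.34 and -0.22. It was below the pool in each aorta, at an unadjusted p of 0.0207 and an adjusted p of 0.209, but median centring moved its mean to 0.0019. The mean of A_52_P302395 turned to 0.12 with median centring, so the direction of these 2 probes depended on the scaling. A_52_P442270 stayed negative under each alternative, from -0.39 to -0.02.

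The patterns of Agt and of Agtr1a, the members with the largest mean ratio in size, were compared with those of 16805 symbols over the 3 arrays, by the largest difference in log2 ratio on any array. Closest to Agt were Gsta3 (0.23), Tspyl5 (0.37) and Cyp2b13 (0.39). Gsta3 encodes a glutathione S-transferase and had log2 ratios of -1.57, 0.39 and 0.09 in aortas 1, 2 and 3. Closest to the Agtr1a probe A_52_P645862 were Erc2, Vamp4 and Erbb3, each within 0.03 on every array. Likeness over 3 arrays is a description of these ratios.

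**Figure D4:**
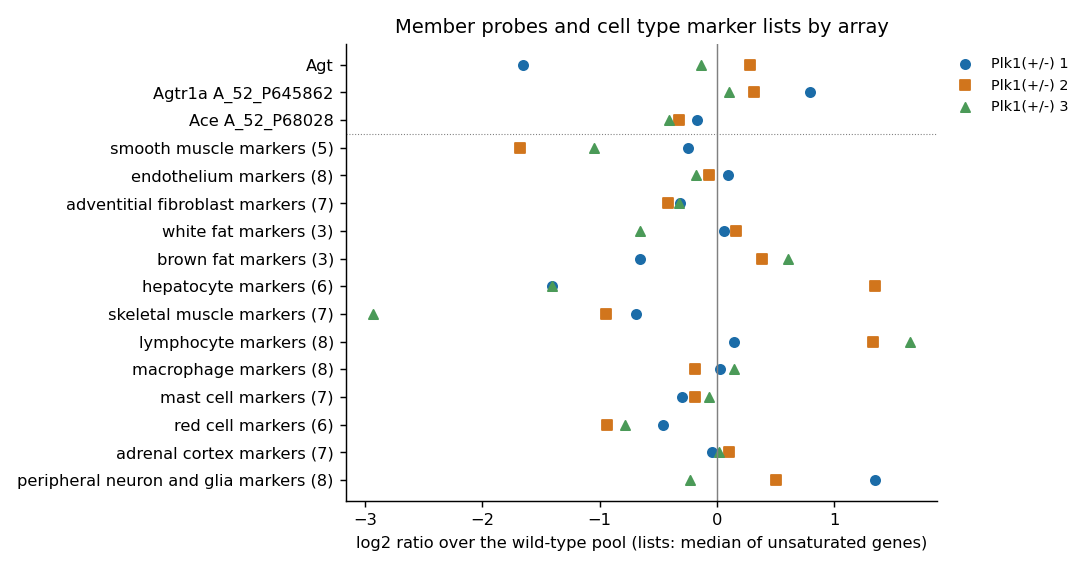
Log2 ratio over the wild-type pool (x axis) in each Plk1(+/-) aorta for 3 member probes and, below the dotted line, the median of the unsaturated genes of each marker list, with the number of genes in brackets. Hepatocyte medians were -1.41, 1.35 and -1.41, and neuron and glia medians 1.35, 0.51 and -0.23 in aortas 1, 2 and 3.

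Around the 9 members, 6 lists of pathway genes were described by counts and medians, with the brightest probe of each gene. Of the 15 angiotensin peptidases tested, 0 passed in limma over all probes, and at an unadjusted p under 0.05 were 5 lower (1 of them, Ctsd, saturated) and 0 higher, beside 18.8% of all tested probes. Their median was -0.10, against 0.03 over all tested probes. Anpep, aminopeptidase N, which removes the first residue of angiotensin III, had log2 ratios of -0.24, -0.56 and -0.47 in the Plk1(+/-) aortas (adjusted p = 0.171). Cpa3, mast cell carboxypeptidase, had -0.57, -0.67 and -0.20 (adjusted p = 0.185). Cma1, a mast cell chymase, had -0.53, -0.62 and -0.19 (adjusted p = 0.187). Enpep, aminopeptidase A, had -0.26, -0.16 and -0.30 (adjusted p = 0.214), with a mean of 0.0034 under median centring.

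Cpa3 and Cma1 had nearly the same profile over the 3 aortas, lowest in aorta 2 and nearest to the pool in aorta 3. Both are also in the mast cell list, of which 7 genes were tested. At an unadjusted p under 0.05 were 3, all 3 of them lower, beside 18.8% of all tested probes. Cpa3 and Cma1 are among these 3, while Kit, Hdc and Tpsab1 had positive means of 0.25, 0.15 and 0.13. That list had medians of -0.30, -0.18 and -0.07 in aortas 1, 2 and 3. The part of mast cells in the peptidase values was not tested.

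Of the 13 tested renin relatives and genes of renin release, 0 passed and 3 were lower at an unadjusted p under 0.05, a share near the 18.8% of all tested probes, with a median of -0.16. Adcy5, an adenylyl cyclase of the cAMP route to renin release, had log2 ratios of -0.68, -0.95 and -0.59 in the Plk1(+/-) aortas (adjusted p = 0.0931). Ptgs2, cyclooxygenase-2, had -0.44, -0.55 and -0.54 (adjusted p = 0.0953). Its signals were 135, 142 and 124 in Plk1(+/-) aortas and 113, 113 and 109 in the pool, close to background, and with the scanner's processed signals its mean was -1.48 with an adjusted p of 0.0424, 1 of 3 alternatives of 16 under which it passed. Nos1, neuronal nitric oxide synthase, had -0.10, -0.45 and -0.81 (adjusted p = 0.240). Ren2, the second renin gene, had -0.05, -0.56 and -0.20 (adjusted p = 0.311).

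Downstream of the AT1 receptor, 25 coupling and handling genes were tested, 0 passed, and 4 were higher and 3 lower (1 of these, Cav1, saturated) at an unadjusted p under 0.05, beside 18.8% of all tested probes. Their median was -0.07. Arrb2, 1 of the arrestin genes of this list, had log2 ratios of 0.41, 0.33 and 0.66 (adjusted p = 0.158). Cyba, a membrane subunit of NADPH oxidases, had 0.38, 0.28 and 0.55 (adjusted p = 0.168). The G protein subunit gene Gna13 had 0.14, 0.35 and 0.22 (adjusted p = 0.229). The phospholipase gene Plcb4 had -0.12, -0.50 and -0.66 (adjusted p = 0.215).

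On the AT2, Mas and kinin side, 7 genes were tested, 0 passed, and their median was -0.07. At an unadjusted p under 0.05, 1 gene was lower, beside 18.8% of all tested probes. That gene was Nos3, endothelial nitric oxide synthase, with -0.30, -0.27 and -0.44 in the Plk1(+/-) aortas (adjusted p = 0.173). The apelin receptor gene Aplnr had 0.08, -0.42 and -0.46 (adjusted p = 0.355). The bradykinin B1 receptor gene Bdkrb1 had -0.04, -0.15 and -0.03 (adjusted p = 0.593). The kininogen gene Kng1 had 0.10, 0.06 and -0.81 (adjusted p = 0.598).

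Of 10 tested genes of aldosterone synthesis and mineralocorticoid response, 0 passed, with a median of 0.05. At an unadjusted p under 0.05 were 0 of them, beside 18.8% of all tested probes. Nr3c2, the mineralocorticoid receptor gene, had log2 ratios of 0.14, 0.02 and 0.07 (adjusted p = 0.560) and a mean of -0.05 with the processed signals. Scnn1g and Scnn1b, sodium channel subunits, and Hsd3b1, a steroid dehydrogenase, were not well above background in the pool on any array. They are given without a fold, with adjusted p values of 0.475, 0.479 and 0.628, and their mean ratios changed sign under median centring. The 7 tested adrenal cortex markers had medians of -0.04, 0.11 and 0.02.

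Of 18 tested genes known to be induced by angiotensin II in vessels, 1 passed, beside 0.662% of all tested probes, and 9 were lower and 0 higher at an unadjusted p under 0.05, beside 18.8% in either direction. Their median was -0.42, against 0.03 over all tested probes. The gene that passed was Ccn1, which encodes a matricellular protein. It read 2045, 2508 and 1728 in Plk1(+/-) aortas and 2033, 2023 and 1794 in the pool, or log2 ratios of -1.32, -1.00 and -1.49. Every aorta was below the pool after normalization, with a mean log2 ratio of -1.27 ± 0.25 (SD, n = 3) and an adjusted p of 0.0381. Ccn1 passed under 9 of 16 alternatives. The adjusted p was 0.212 with saturated probes left out of the fit, 0.0729 to 0.0911 with the authors' values, an offset of 0 or the processed signals, and 0.0687 to 0.175 without 1 of the aortas, with means of -1.41 to -1.16.

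The fibronectin gene Fn1 had log2 ratios of -1.02, -1.07 and -0.69 in the Plk1(+/-) aortas (adjusted p = 0.0653). Spp1, osteopontin, had -0.76, -1.61 and -1.73 (adjusted p = 0.121), and without aorta 1 it had a mean of -1.67 and an adjusted p of 0.0329. It passed under 2 of 16 alternatives. Without aorta 2, or without aorta 3, 0 probes of the whole array passed. Fn1 and Spp1 were both below the pool in every aorta. Beside them, 8 of 8 smooth muscle markers were lower at an unadjusted p under 0.05, 3 of them saturated, and of 8 adventitial fibroblast markers 6 were lower and 1 was higher, where 18.8% of all tested probes were at such a p in either direction. Other lists moved as well: 6 of 8 skeletal muscle and 6 of 7 red cell markers were lower at such a p, with medians of -1.49 and -0.66 over their unsaturated genes, and 6 of 8 lymphocyte markers were higher, with a median of 1.02. Saturated among the lower markers were also Dcn of the fibroblast list, Myh4 of skeletal muscle and Hba-a1 of red cells. The fibroblast medians were -0.31, -0.42 and -0.33 in aortas 1, 2 and 3, and Col1a1 is in both that list and the induced genes. The part of these cells in the induced genes was not tested.

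**Figure D5:**
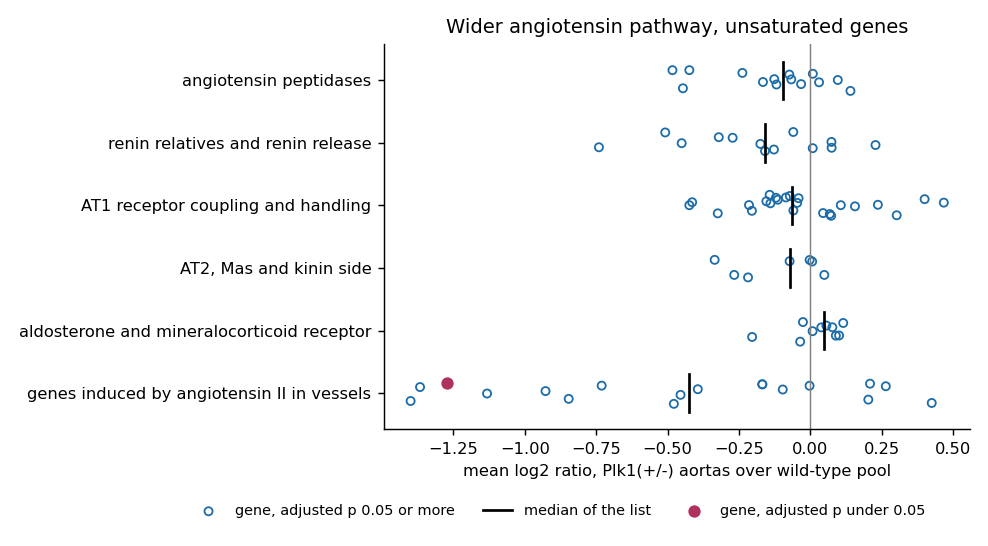
Mean log2 ratio of the 3 Plk1(+/-) aortas over the wild-type pool (x axis) for each unsaturated gene of the 6 pathway lists (y axis), with a black bar at the list's median; points are spread vertically so that they can be seen. Ccn1, filled, is the 1 gene with an adjusted p under 0.05, and the medians run from -0.42 to 0.05.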

How the data were processed

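Total RNA of aortas was amplified and labelled with Cy3 or Cy5, per the labels' protocols. Spot intensity values in the deposited files came from Agilent Feature Extraction, per the file headers, as mean signals without background subtraction or normalization. The authors' series values, deposited on the log2 scale, matched the files' log ratio (log10 of processed Cy5 over processed Cy3, per the file headers) with slopes of 0.997 to 1.00; their centring step is not given in the sources used here.

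Signals were corrected with normexp (offset 50) and loess-normalized within arrays, with control spots weighted 0 (limma 3.58.1, R 4.3.3; tables read by its data.table package, release 1.17.8); Aquantile scaling served single-dye values alone. Outlier spots were dropped (100 to 136 per array) and spots of 1 probe averaged. Kept were probes that, on 2 or more of the 3 arrays, stood well above background in 1 dye or both. The test against 0 was two-sided (lmFit, eBayes), and p-values were adjusted by Benjamini and Hochberg's method over every kept probe; the fit was tested on simulated data. Probes stayed separate for members; a gene of a list was read on its brightest kept probe. Current symbols came from RefSeq's GRCm38.p6 listing (22951 probes by accession, 3109 by synonym; 6659 were current and 8455 kept the files' name). The number of arrays, 3, limits the precision. Figures were drawn with matplotlib 3.10.9.

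The members, lists and tests were chosen with earlier results of these data known. Named are every member probe, Plk1, the genes of each list (4 at most) that had the lowest unadjusted p on an unsaturated brightest probe, and the 3 symbols most like each of the 2 members with the largest mean ratio; single markers were named where a result turned on them. One gene that this rule takes is not reported here. Alternatives changed the background correction, offset, normalization, filters, saturated probes, probe choice, variance model, array weights, source values and replicates.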

Additional observations from a re-analysis of the deposited data

How the results depend on the processing

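Member probes called stayed at 0 of those tested under 15 of 16 alternatives; median centring called 4, namely Ace A_52_P72297, Ren1 A_52_P544060, Agtr1a A_52_P645862 (mean 0.64, adjusted p = 0.0419) and Agtr1b (mean -0.61, adjusted p = 0.0270). Calls over the whole array numbered 215, against 10342 with median centring, 100 with processed signals, 90 with offset 0, 0 without saturated probes (5698 at an unadjusted p under 0.05 in limma) and 0 to 293 without 1 aorta. Pathway genes called numbered 1, against 23 with median centring, 3 with array weights, 2 with an intensity trend, 0 with offset 0, 0 without saturated probes and 0 to 1 without 1 aorta. Where 1 gene was called it was not always Ccn1. It was Ptgs2 with the processed signals and with the authors' values (adjusted p in limma 0.0424 and 0.029), and Spp1 without aorta 1. With median centring these means changed sign: Ren1 A_51_P316661 -0.036, Agtrap A_51_P271208 -0.13, Lnpep A_52_P302395 0.12 and A_52_P455712 0.0019, Enpep 0.0034, Bdkrb1 0.078, Kng1 0.059, Scnn1g -0.47, Scnn1b -0.52 and Hsd3b1 -0.47. With the processed signals, and alike with the authors' values, Agtr1b turned to 0.075, Agtrap A_51_P271208 to -0.077, A_52_P552550 to -0.079 and Nr3c2 to -0.047; offset 0 turned A_52_P552550 to -0.0034. Leaving out 1 aorta, means ran from -0.90 to 0.071 for Agt, -0.053 to 0.27 for Agtr1a A_51_P236439, -0.15 to 0.0067 for Agtr1b, -0.11 to 0.14 for Agtrap A_52_P330667, -0.016 to 0.039 for A_52_P552550, -0.14 to 0.0029 for Lnpep A_52_P302395, -0.38 to 0.080 for Kng1, -0.014 to 0.15 for Hsd3b1 and -0.068 to 0.18 for Plk1. The causes were not tested. Of the member means recomputed, 207 kept their direction and side of the threshold, 4 gained a call and 17 changed sign.

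No paired analysis was possible because replicate numbers belong to 1 group: the pool is 1 sample. Signal over background was low for Ren1 A_52_P544060, Agtr1b and Ptgs2, and Agtr2 and Mas1 were not well above background on any array. Most fat markers were saturated.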
